A study of Mus musculus with 10 samples.

Results

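The replication-dependent histone genes were taken from the deposited gene count table as every row whose symbol starts with Hist1h, Hist2h, Hist3h or Hist4h and does not carry the pseudogene suffix -ps. This gave 69 of the 46959 genes of the table. The rule used names alone and no measured value. By protein they were 6 genes of the linker histone H1, 20 of H2A, 18 of H2B, 12 of H3 and 13 of H4. By position in mm10, 56 lay in the Hist1 cluster on chromosome 13, 10 in Hist2 on chromosome 3, 2 in Hist3 on chromosome 11 and 1, Hist4h4, on chromosome 6.

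RNA was sequenced from 10 libraries of mouse cells, 6 from spleen and 4 from femur. Splenocytes lacking CD43, a surface protein absent from resting B cells, were kept in culture for 2 days with lipopolysaccharide (LPS, 5 µg/ml), which drives B cells to divide. Of these cultures 2 came from wild-type (WT) mice, named BLACK-6 in the labels, and held LPS alone. A further 2 WT cultures also held SAHA, an inhibitor of histone deacetylases, at 200 ng/ml from the start, and 2 came from KOKI mice. The descriptions of the SAHA samples carry the mark D3, which those of the other cultures lack and the labels do not explain, so an unequal culture time was not tested. The labels do not spell out KOKI or give the strain of those mice. Titles and design text give the KOKI cultures LPS alone, but the treatment entry of those samples adds SAHA, so they were compared with both WT groups. The femoral preparations were extracted directly, without culture, from pools of 3 mice: 2 control pools deficient for RAG2 and gamma c, 1 pool of KOKI mice deficient for both and 1 pool of KOKI mice deficient for RAG2 alone. Every femoral library therefore lacked RAG2, which is needed to rearrange antigen receptor genes, and 3 of the 4 also lacked gamma c, a shared interleukin receptor chain.

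Replication-dependent histone genes supply the proteins that package newly made DNA, and their transcripts rise in S phase and are degraded when replication stops. Most are short genes without introns, whose mRNA ends not in a poly(A) tail but in a stem-loop bound by Slbp. Such transcripts are kept in total RNA libraries like these and are mostly lost in libraries selected for poly(A).

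The stem-loop is the sequence that marks the family, so it is shown for 1 member of each type and for Hist1h4i, which is taken up again below. Letters are those of GENCODE M21 transcripts, 5′ to 3′, with the 16 bases of the stem-loop in capitals. It was found in the models of 42 of the 69 members, in 5 forms. The form of the Hist1h2ab line stood in 26 members of H1, H2A, H2B and H3, and that of Hist1h2bb in 6 of H1, H2B and H3. The form of Hist1h4d was in 7 H4 genes and that of Hist1h4i in 2 H4 genes. A model may stop with the coding sequence, but models without a match also include long ones, such as that of Hist2h2be with 2620 bases. The search took a fixed pattern of 16 bases. A missing match therefore does not show that a transcript lacks a stem-loop.
Hist1h1c (H1): aaaaGGCTCTTTTCAGAGCCaccactccca
Hist1h2ab (H2A): caaaGGCTCTTTTCAGAGCCacccacatct
Hist1h2bb (H2B): caaaGGCTCTTTTAAGAGCCacccacactt
Hist1h3b (H3): caaaGGCTCTTTTCAGAGCCacccacagtt
Hist1h4d (H4): caaaGGCCCTTTTCAGGGCCactaccttct
Hist1h4i (H4): taaaGGCCCTTTTTAGGGCCaccacaaaat

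Promoters could be matched for 62 members in the RefSeq table (GRCm38.p6). The 300 bases held for each, 250 of them before the start, were searched on both strands. The CCAAT box was present in all matched promoters of H1 (6), H2A (18), H2B (16) and H3 (10), but in 3 of 12 H4 promoters. The H3 genes Hist2h3c2 and Hist2h3c1 lacked it in the 250 bases before the start. Over all 32851 promoters of the table it was present in 37.4%. Over the same 300 bases the letters TATAAA were in 56.5% of the matched members and 13.6% of all promoters. The octamer ATTTGCAT was found in 7 of 18 H2A and 6 of 16 H2B promoters and in none of H1, H3 or H4, against 1.74% of all promoters. H2A and H2B genes stood head to head in 13 pairs whose gene models were 235 to 305 bases apart. A match of letters is a description and does not show a bound site.

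Library totals ran from 18614742 to 29314068 counts, and members took between 305253 and 1499187 of them. Depth therefore did not limit most members: 66 of 69 had at least 100 counts over the 10 libraries and were tested in every comparison. The testis gene Hist1h2aa had 3 counts in each KOKI culture and 0 elsewhere, Hist2h2aa1 had at most 6 counts in a library, and Hist2h3c1 had 0 in all 10. Every 75-base window of Hist2h2aa2 is also found in Hist2h2aa1, so counts of single members of such copies are uncertain. Across members the median share of 75-base windows found in no other GENCODE gene was 54.3%, and 11 members were under 10%. A total of 25 members overlap another gene of the table, and the sources used here do not give the strand or multiple-match setting of the counting. Libraries that stood apart were WT LPS+SAHA replicate 2, with counts on 451 of 1292 olfactory receptor genes against 15 to 126 in the others, and KOKI LPS replicate 2. The latter held 8499 counts of Xist and 20 of the Y-linked Ddx3y, where the other libraries had at most 9 and at least 1853. By these counts KOKI LPS replicate 2 was of female and replicate 1 of male origin, so the 2 KOKI cultures did not come from 1 animal. Every WT culture had the male pattern, so sex was not balanced between KOKI LPS and WT cultures, and its part was not tested. For the other replicate cultures nothing in the labels says that they came from separate animals. The p-values measure the spread between these libraries, which may be technical in part.

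Members together took 3.85% and 2.85% of all gene counts in the 2 WT LPS cultures, 2.65% and 1.55% with SAHA, and 5.74% and 3.14% in the KOKI cultures. In the femoral libraries the share was 2.57% and 2.83% in the controls, 5.53% in the KOKI pool deficient for RAG2 and gamma c, and 6.04% in the KOKI pool deficient for RAG2. Both SAHA cultures lay below both WT LPS cultures, and both femoral KOKI pools lay above both controls, while the KOKI cultures overlapped the WT LPS cultures. As means ± SD (n = 2) the shares were 3.35% ± 0.711 in WT LPS, 2.10% ± 0.778 with SAHA, 4.44% ± 1.84 in KOKI LPS and 2.70% ± 0.184 in femoral controls. In bulk RNA, fewer cells in S phase and less histone mRNA per cell cannot be told apart. The Hist1 cluster held 83.9% to 89.6% of the members' counts, Hist2 9.06% to 15.6%, Hist4h4 0.336% to 1.59% and Hist3 0.0423% to 0.207%.

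**Figure D1:**
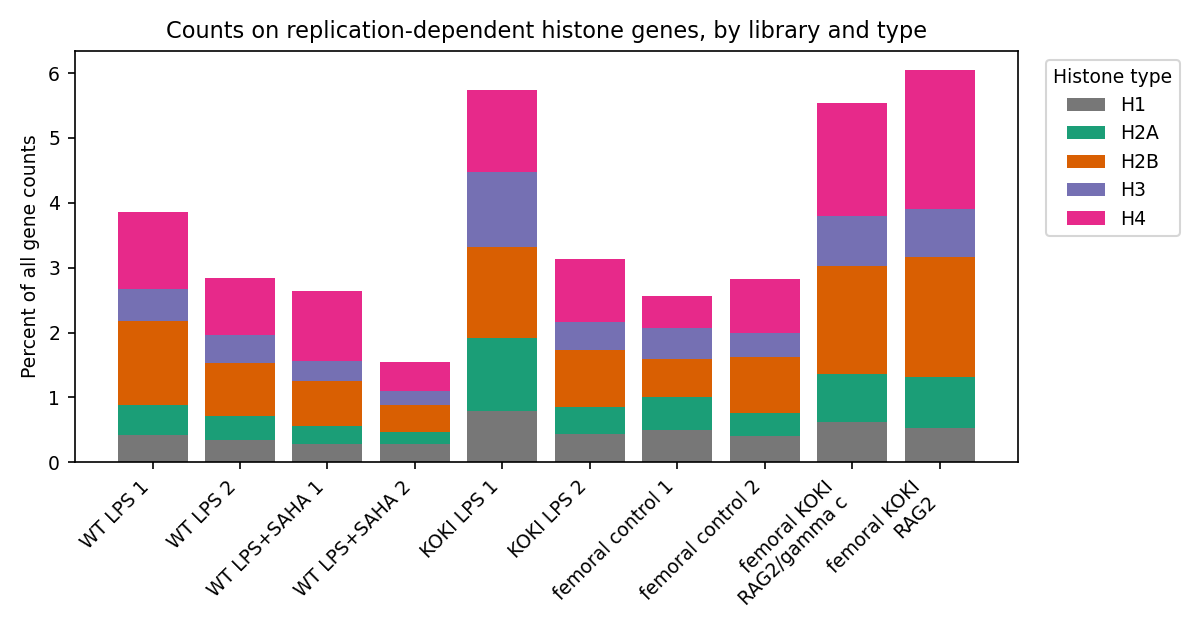
Percent of all gene counts that fell on replication-dependent histone genes (vertical axis), 1 bar per library, stacked by histone type. KOKI LPS replicate 1 and both femoral KOKI pools stand highest, between 5.53% and 6.04%, and WT LPS+SAHA replicate 2 lowest at 1.55%.

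The mix of types differed between libraries, and 2 of them stood apart. The ratio of H2B and H4 counts to H2A and H3 counts was 1.07 in femoral control replicate 1 and 1.19 in KOKI LPS replicate 1, and between 2.15 and 2.99 in the other 8. H4 took 40.8% of the members' counts in WT LPS+SAHA replicate 1, the highest share, and 19.1% in femoral control replicate 1, the lowest. Within the KOKI pair, replicate 1 exceeded replicate 2 by a median log2 difference of 1.63 over the H2A genes and 1.46 over H3, against 0.81 over H1, 0.69 over H2B and 0.39 over H4. Within the femoral controls, replicate 1 was lower than replicate 2 over H2B (median -0.66) and H4 (-0.997) and higher over H2A (0.35) and H3 (0.43). H2A and H3 thus stood high against H2B and H4 in both libraries. Median GC content of the longest GENCODE transcript per gene was 64.3% in H2A, 59.9% in H3, 56.2% in H4, 55.9% in H2B and 53.1% in H1. These transcripts can be longer than the models used for counting, as in Hist1h1d with 7425 against 744 bases. The GC values therefore do not describe the counted stretch alone. The part of base composition or of library preparation in this mix was not tested.

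**Figure D2:**
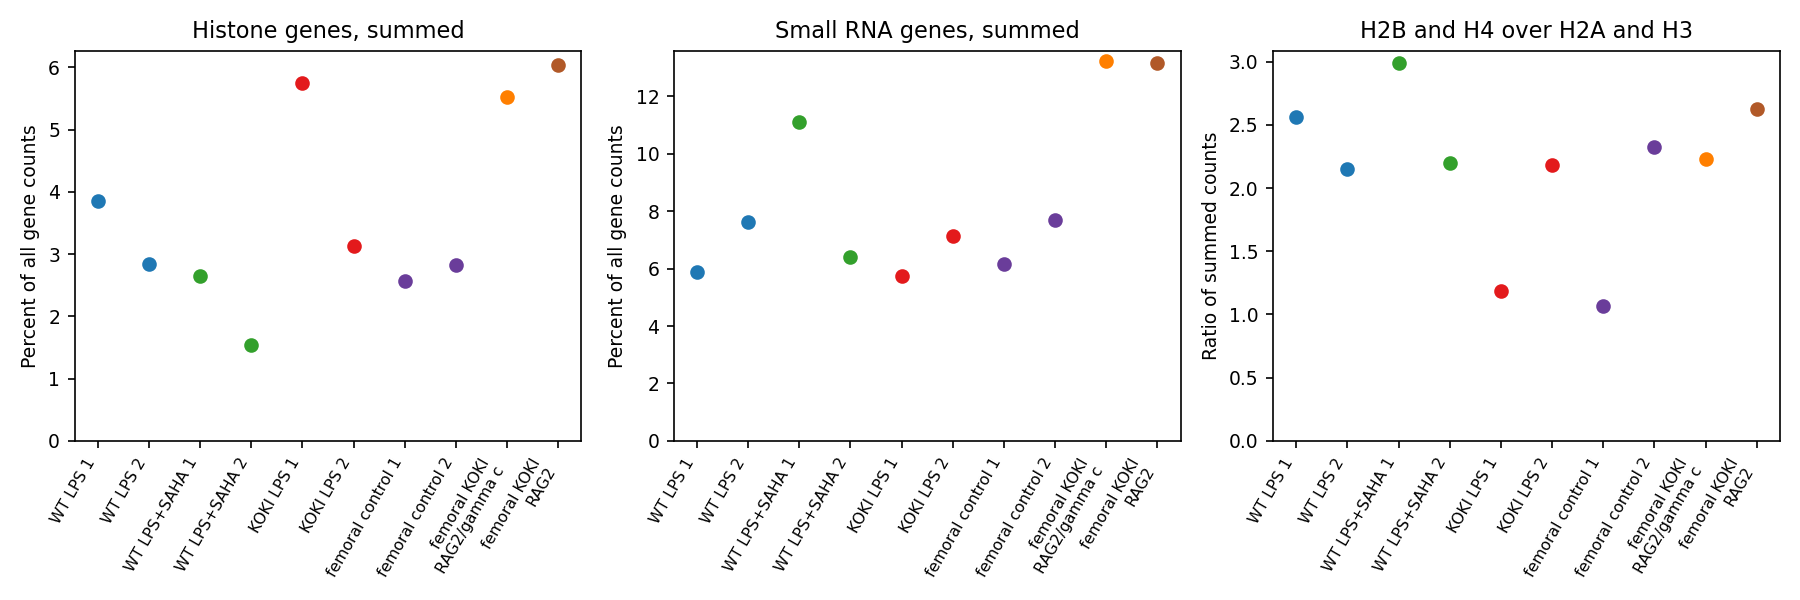
Per library: percent of counts on histone genes (left), percent of counts on small RNA genes (centre) and the ratio of H2B and H4 counts to H2A and H3 counts (right). KOKI LPS replicate 1 and femoral control replicate 1 have ratios of 1.19 and 1.07, and both femoral KOKI pools have small RNA shares of 13.2%.

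Levels of different genes are compared as CPM, the counts for each 1e6 normalised counts, per kilobase of gene model (CPM per kb), with library sizes normalised by TMM. Hist1h4d, 1 of many genes for the same H4 protein, led its type. Its level per kb was 5437 and 3429 in WT LPS, 4091 and 1654 with SAHA, 4448 and 3401 in KOKI LPS, 3357 and 2699 in femoral controls and 5763 and 7599 in the femoral KOKI pools. Hist1h4c and Hist1h4k followed, with means over the splenic libraries of 3421 and 3125 against 3744 for Hist1h4d; libraries of these 3 genes overlapped. Hist1h2bb led the H2B genes, with 3979.6 and 2219.7 CPM per kb in WT LPS, 1743 and 851 with SAHA, 5070.4 and 3361 in KOKI LPS, 1457 and 2327 in controls and 4237 and 4880.3 in femoral KOKI. Hist1h2bg (splenic mean 2307) and Hist1h2bn (1836) came next, and Hist1h2bn is described on its own below. Hist2h2aa2, whose reads match Hist2h2aa1 as well, was the highest H2A gene, at 2851 and 1947 in WT LPS, 1856 and 935 with SAHA, 4125 and 2529 in KOKI LPS, 2659.6 and 1497 in controls and 3122 and 3957 in femoral KOKI. The H2A genes Hist1h2ab and Hist1h2ak had nearly equal splenic means of 1089 and 1083 CPM per kb. Among H3 genes Hist1h3c (1660) exceeded Hist1h3i (1225) and Hist1h3a (1089.8). Among H1 genes Hist1h1d (1437) exceeded Hist1h1b (1124) and Hist1h1e (1123). In these orders, ranges of neighbours overlapped across libraries. The orders also rest on the length of each model. Before division by length, Hist1h2br, at 2086 and 1225 CPM in WT LPS, exceeded Hist1h2bb, at 1799 and 1003 CPM. Their models have 2212 and 452 bases.

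SAHA was compared with no SAHA in WT LPS cultures to see how an inhibitor of histone deacetylases changed histone gene transcripts. Levels of 61 of the 66 tested members were lower with SAHA, with a median log2 difference of -0.80 against 0.02 over all 15342 genes tested, but none passed the test. In edgeR 0 of 66 had an adjusted p under 0.05, where 4.64% of all genes did, 3.69% lower and 0.952% higher. At an unadjusted p under 0.05 in edgeR, 17 members were lower and 1 higher, where 2362 of the 15342 genes were lower and 1514 higher. DESeq2 called 3 members, all lower, and 1211 genes in all. The titles give 1 WT number to an LPS culture and to an LPS+SAHA culture, and with that replicate number as a block edgeR called 52 members, 51 lower and 1 higher, and 3413 genes in all. Both SAHA libraries were below both WT LPS libraries in 43 members (30.3% of all genes) and above both in 3 (26% of all genes).

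The median difference was -0.998 over the H2A genes, -0.97 over H2B, -0.84 over H3, -0.49 over H4 and -0.42 over H1. Hist1h2bb, the leading H2B gene per kb of gene model, had normalised levels of 1799 and 1003 CPM in WT LPS and 788 and 384 CPM with SAHA. Both SAHA values were below both others, with a log2 difference of -1.22 (SE 0.40, edgeR adjusted p = 0.108). Hist1h3b, an H3 gene, was at 633 and 468 CPM without SAHA and 272 and 186 CPM with it, a log2 difference of -1.24 (SE 0.39, edgeR adjusted p = 0.103). Hist1h2af had the lowest adjusted p of the members, 0.0940 in edgeR, with 99.3 and 75.3 CPM without and 37.0 and 31.1 CPM with SAHA. For the H4 gene Hist1h4c the groups overlapped, at 1487 and 1203 CPM in WT LPS and 1812 and 555 CPM with SAHA. SAHA replicate 1 was the higher of the SAHA pair by a median log2 of 1.51 over H4 genes, and its small RNA share was 11.1% against 6.39% in replicate 2. Without SAHA replicate 1 the median over all members was -1.39, and without replicate 2, the library with olfactory receptor counts, it was -0.46.

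Positive differences stood in 5 members, none of them past the threshold. Hist3h2a, known to make polyadenylated mRNA as well, was at 9.28 and 9.49 CPM in WT LPS and 17.2 and 11.6 CPM with SAHA (log2 0.64, SE 0.25, edgeR adjusted p = 0.156). Hist2h2be, also known for a polyadenylated form, was at 14.1 and 11.9 CPM and 21.2 and 14.2 CPM (log2 0.47, edgeR adjusted p = 0.240). In both genes each SAHA library lay above each WT LPS library. The testis gene Hist1h1t, likewise without overlap, had 0.553 and 1.08 CPM and 1.26 and 1.21 CPM (log2 0.62). Hist3h2ba (log2 0.14) and Hist1h2aj, which RefSeq classes as a pseudogene (log2 0.20), overlapped between groups. Hist1h1c, Hist1h2bc and Hist4h4, also known for polyadenylated forms, had negative differences of -0.29, -0.85 and -0.57.

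Other genes of the S phase programme also had lower levels with SAHA, and some passed the test. Among 28 replication genes 12 fell and none rose, with a median log2 of -0.67, including Cdc45, a helicase subunit (-1.04, edgeR adjusted p = 0.0198), and Rrm2, of the enzyme that makes deoxynucleotides (-1.04, edgeR adjusted p = 0.0260). Of 27 tested regulators of histone mRNA 5 fell: Ccna2 and Ccne2, cyclins of S phase (-1.05 and -1.005), Slbp, the stem-loop binding protein (-0.77, edgeR adjusted p = 0.0431), the cap-binding Ncbp1 (-0.65) and the cleavage factor Cstf2 (-0.57). Npat, the activator of histone gene transcription, had -0.47 (edgeR adjusted p = 0.0684), Casp8ap2 -0.45, the 3′ exonuclease Eri1 -0.45, the U7 particle proteins Lsm10 -0.15 and Lsm11 -0.52, Zfp473 -0.46, the endonuclease Cpsf3 -0.26 and the H4 gene activator Hinfp -0.09. None of these 8 passed. Among 13 histone chaperones 3 fell, Nasp (-0.88), Hat1 (-0.76) and Supt16 (-0.71). Among 10 tested replacement variants, histones whose making is not confined to S phase, 1 fell, the centromere variant Cenpa (-0.78). All 6 markers of proliferation outside S phase fell (median -1.20). Summed macrophage markers were 28.1 CPM in each WT LPS culture and 49.3 and 49.0 CPM with SAHA, and 1 of 5 tested, Adgre1, rose; their part in the result was not tested.

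**Figure D3:**
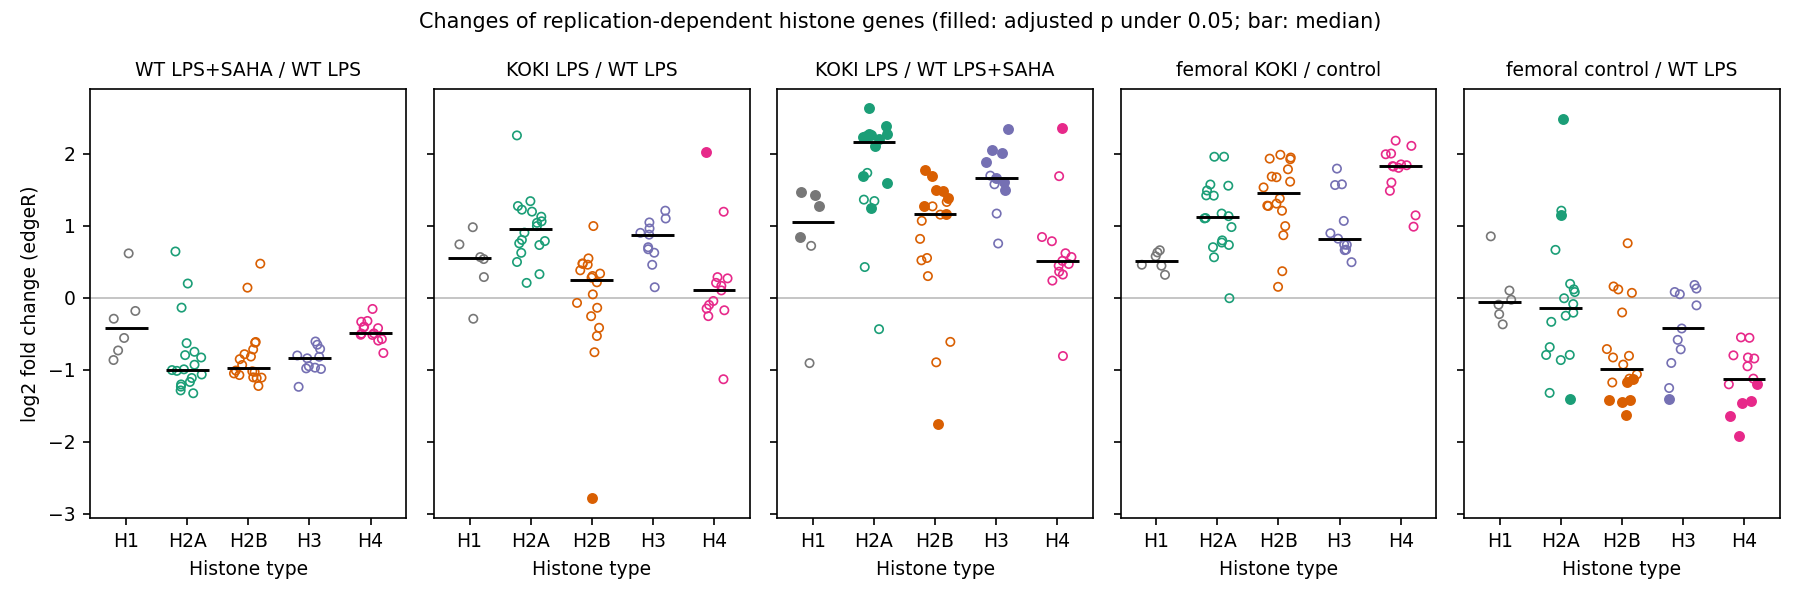
Log2 fold change of each tested member (vertical axis) by histone type in the 5 comparisons, with filled points for edgeR adjusted p under 0.05 and a bar at the median of each type. In WT LPS+SAHA against WT LPS no point is filled, although the type medians run from -0.998 to -0.42, and in KOKI LPS against WT LPS+SAHA the H2A median is 2.15 and the H4 median 0.51.

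KOKI LPS cultures were compared with WT LPS cultures to see the effect of the KOKI genotype on dividing B cells. Among the 66 members 2 were called, against 4.08% of all genes: Hist1h2bn fell (1.83% of all genes did) and Hist1h4i rose (2.25%). Positive differences stood in 52 members, with a median log2 of 0.49 against -0.02 over all genes. Both KOKI libraries were above both WT LPS libraries in 10 members (21.4% of all genes) and below both in 3 (25.7% of all genes). The median rested on KOKI replicate 1: it was -0.15 without that library and 0.84 without replicate 2, and the number called was 1 and 10. H2A and H3 genes had medians of 0.95 and 0.88, H1 genes 0.55, H2B genes 0.25 and H4 genes 0.10, and KOKI replicate 1 is the library rich in H2A and H3 counts described above.

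Hist1h2bn, an H2B gene, was the member that fell. It was at 1631 and 957 CPM in WT LPS, 814 and 426 CPM with SAHA and 158 and 210.2 CPM in KOKI LPS, and at 642 and 815 CPM in femoral controls and 1634 and 1952 CPM in the femoral KOKI pools. Both KOKI cultures lay below all 8 other libraries. The mean was 7.02-fold lower than in WT LPS, with a log2 fold change of -2.78 (SE 0.37, edgeR adjusted p = 0.00601). It kept its call when any 1 library was left out, with log2 values from -3.11 to -2.37. As a share of all H2B counts it was 1.04% and 2.25% in the KOKI cultures and 10.4% to 13.04% in the other 8 libraries, a measure that does not rest on the scaling between libraries.

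Hist1h2bn faces the H2A gene Hist1h2ak, with 295 bases between the gene models, and both are read outward from 1 shared stretch. Hist1h2ak was at 447 and 331 CPM in WT LPS, 279.9 and 159 CPM with SAHA, 959 and 377 CPM in KOKI LPS, 365 and 252 CPM in controls and 615 and 709.9 CPM in femoral KOKI. The groups overlapped in KOKI LPS and WT LPS, and the difference was not called (log2 0.80, SE 0.42, edgeR adjusted p = 0.382). Counts of Hist1h2bn per count of Hist1h2ak were 0.165 and 0.557 in the KOKI cultures and 1.76 to 3.65 in the other 8. The stretch between the RefSeq starts is shown because both genes share it, next to that of Hist1h2ah and Hist1h2bk, whose H2B gene was not called (log2 0.38, edgeR adjusted p = 0.728). Both are from RefSeq in GRCm38.p6 on the plus strand, with the H2A gene leaving to the left and the H2B gene to the right. Capitals mark CCAAT or its complement ATTGG, and each stretch holds 3 of them.
Hist1h2ak and Hist1h2bn, chr13:21753913-21754075: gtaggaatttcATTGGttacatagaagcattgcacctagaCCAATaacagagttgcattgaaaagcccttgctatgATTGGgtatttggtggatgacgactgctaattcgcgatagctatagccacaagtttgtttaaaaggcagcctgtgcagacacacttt
Hist1h2ah and Hist1h2bk, chr13:22035644-22035820: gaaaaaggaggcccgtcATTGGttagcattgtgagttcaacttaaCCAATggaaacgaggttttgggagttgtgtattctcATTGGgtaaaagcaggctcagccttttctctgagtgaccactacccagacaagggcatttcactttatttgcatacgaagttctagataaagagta

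Of the 75-base windows in the Hist1h2bn model of 381 bases 27.7% are found in no other gene, and 56.7% are shared with Hist1h2bk. For Hist1h2ak 68.0% were unique. Sequence differences between mouse strains were not tested, since the table holds counts alone. In the pairs with both genes tested, the H2A gene had the higher KOKI log2 value in 12 of 12, by 0.07 to 1.38 in the 11 pairs other than that of Hist1h2bn and by 3.59 in that pair. This count rested on KOKI replicate 1, the library rich in H2A counts: without it the H2A value was the higher in 6 of 12 pairs. In femoral KOKI against control the H2A value was the higher in 4 of 12 pairs, and for Hist1h2ak and Hist1h2bn the difference was -0.21.

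**Figure D4:**
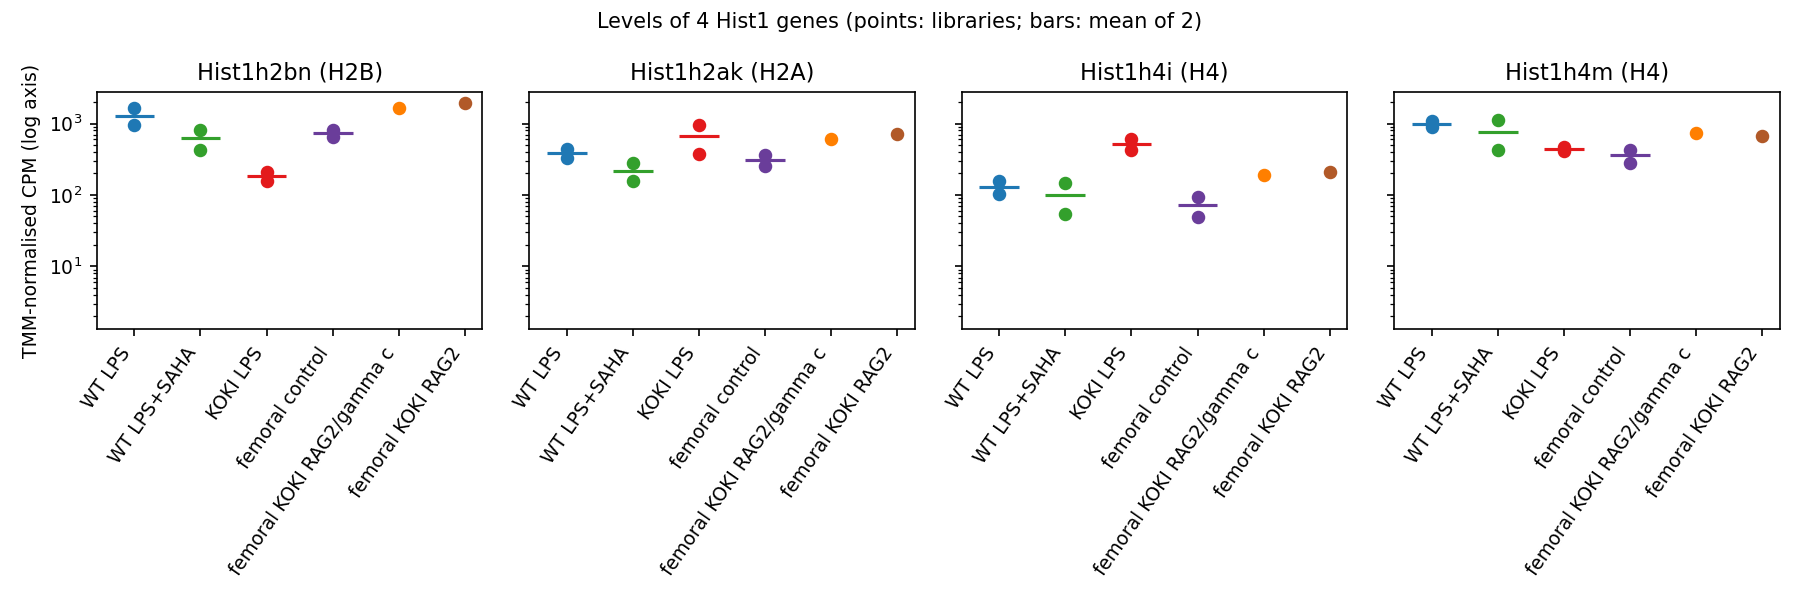
TMM-normalised CPM on a log axis for Hist1h2bn, its H2A neighbour Hist1h2ak and the H4 genes Hist1h4i and Hist1h4m, with 1 point per library and a bar at the mean of groups of 2. The KOKI LPS points of Hist1h2bn, at 158 and 210.2, lie below all its others, and those of Hist1h4i, at 605 and 424, above all its others.

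Hist1h4i, an H4 gene, was the member that rose. It was at 155 and 102 CPM in WT LPS, 146 and 53.9 CPM with SAHA and 605 and 424 CPM in KOKI LPS, and at 49.9 and 94.6 CPM in controls and 189 and 213 CPM in femoral KOKI. Both KOKI cultures lay above all other libraries, with a log2 fold change against WT LPS of 2.03 (SE 0.43, edgeR adjusted p = 0.0419). Leaving out any 1 of the 4 compared libraries ended the call, with edgeR adjusted p from 0.0734 to 0.192, and left log2 values of 1.75 to 2.34. Its share of all H4 counts was 4.42% and 4.10% in the KOKI cultures and 1.01% to 1.32% elsewhere. Of its 75-base windows 77.6% were unique.

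The H4 genes that share a promoter run with it had values of both signs. In the 120 bases before the start, Hist1h4i and Hist1h4m hold an identical run of 38 bases, given in capitals, which is in 3 of the 32851 RefSeq promoters, the third being Hist1h4n. Sequences are from GRCm38.p6, Hist1h4i on the minus and Hist1h4m on the plus strand.
Hist1h4i, chr13:22041363-22041482: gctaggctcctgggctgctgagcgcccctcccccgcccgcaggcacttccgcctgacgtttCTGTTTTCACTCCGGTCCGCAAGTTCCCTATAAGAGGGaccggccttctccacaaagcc
Hist1h4m, chr13:21811626-21811745: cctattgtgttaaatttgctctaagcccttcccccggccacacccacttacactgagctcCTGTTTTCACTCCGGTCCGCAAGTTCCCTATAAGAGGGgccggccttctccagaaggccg

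Hist1h4m was at 1074 and 893 CPM in WT LPS and 472 and 411 CPM in KOKI LPS, below both WT values but short of the threshold (log2 -1.13, SE 0.38, edgeR adjusted p = 0.173). Hist1h4n was at 744 and 448 CPM and 1630.1 and 1046 CPM, above both (log2 1.19, SE 0.52, edgeR adjusted p = 0.283). Of the Hist1h4m windows 89.0% are also in Hist1h4n, so their reads may be divided between them. Hist1h2al, an H2A gene apart from the other Hist1 genes, at 51202688 to 51203065 where they span 21715763 to 23934851, had the highest log2 value, 2.25, with 13.4 and 67.4 CPM in WT LPS and 232 and 151 CPM in KOKI (SE 0.67, edgeR adjusted p = 0.126). The WT LPS cultures differed widely in this gene.

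Of the linked lists, where 2.25% of all genes rose, 1 of 28 replication genes rose in KOKI LPS, Cdc6 (0.57, edgeR adjusted p = 0.0496), and 1 of 27 regulators, Ccne1 (0.64, edgeR adjusted p = 0.0449). None of 13 chaperones and 10 variants was called, with 1 and 3 at an unadjusted p under 0.05. Of the 6 proliferation markers 1 rose, with 4 higher at an unadjusted p under 0.05. Slbp (0.05), Npat (-0.19), Casp8ap2 (0.14), Hinfp (-0.02), Lsm10 (0.12), Lsm11 (-0.06), Eri1 (0.18), Cpsf3 (-0.08) and Zfp473 (0.92) did not pass. Summed macrophage markers were 14.8 and 14.9 CPM in the KOKI cultures against 28.1 CPM in each WT LPS culture, with Lyz2 lower; their part in the result was not tested.

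Against WT LPS+SAHA, the group their treatment label would match, KOKI cultures differed in 33 of 66 members, where 23.7% of all genes were called. Of these 32 were higher (14.1% of all genes) and 1 was lower (9.64%), with a median log2 of 1.34 against -0.03 over all genes. By type 13 of 18 H2A genes were higher, 7 of 18 H2B, 7 of 11 H3, 1 of 13 H4 and 4 of 6 H1. The highest values among called members were those of Hist1h2ah (2.63), Hist1h2al (2.39), Hist1h4i (2.36), Hist1h3b (2.34) and Hist1h2ae (2.27), with edgeR adjusted p from 0.00659 to 0.0378. Hist1h3b was at 1649.7 and 674 CPM in KOKI LPS and 272 and 186 CPM in WT LPS+SAHA, without overlap. Hist1h2ah was at 527 and 124 CPM and 67.4 and 37.4 CPM. The member that fell was again Hist1h2bn (-1.76, SE 0.36, edgeR adjusted p = 0.0118), a call that ended without KOKI replicate 1 (log2 -1.54, edgeR adjusted p = 0.0806), and Hist1h4i was the H4 gene that rose. Both KOKI libraries were above both SAHA libraries in 44 members (32.9% of all genes) and below both in 4 (32.7%).

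The count depended on single libraries: 7 members were called without KOKI replicate 1, 11 without SAHA replicate 2, 36 without KOKI replicate 2 and 53 without SAHA replicate 1. Of 28 replication genes 26 were higher in KOKI LPS than in WT LPS+SAHA (median 0.80), with Cdc6 (1.25) and Cdc45 (1.23) among the largest. All 6 proliferation markers were higher (median 1.53). Of 27 regulators 11 were higher, among them Ccna2 (1.35), Slbp (0.82), Casp8ap2 (0.59), Eri1 (0.63) and Zfp473 (1.37). Of 13 chaperones 7 were higher, led by Asf1b (1.04), and of 10 tested variants 5, led by H2afx (1.79). Summed macrophage markers were 14.8 and 14.9 CPM in KOKI LPS and 49.3 and 49.0 CPM in WT LPS+SAHA, and 3 of 5 tested were lower; their part in the result was not tested. The comparisons of KOKI LPS with the 2 WT groups and of SAHA with no SAHA share libraries and are not independent.

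**Figure D5:**
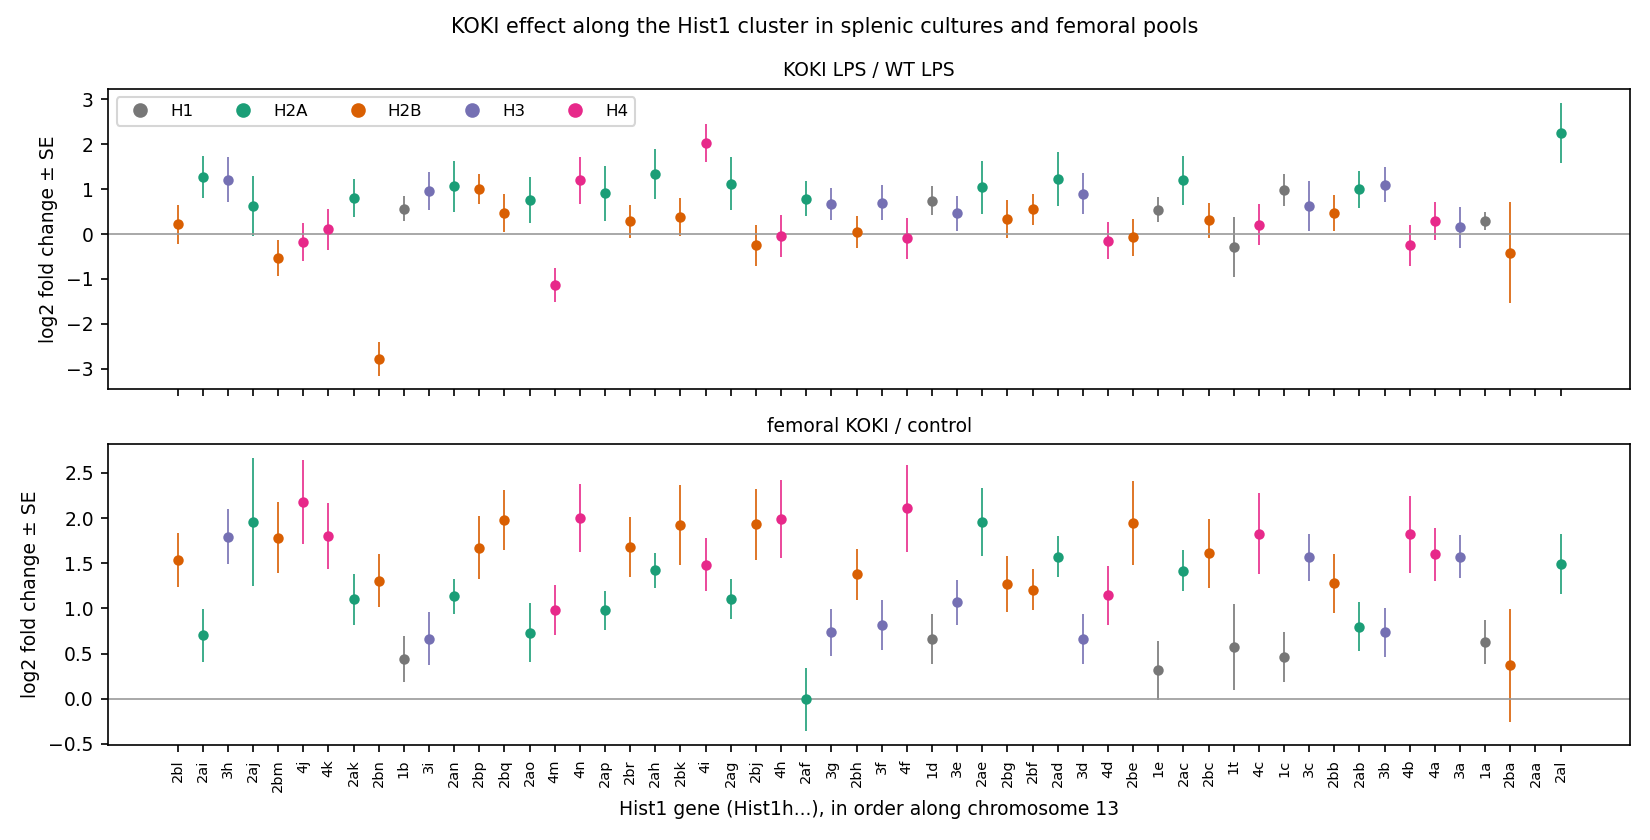
Log2 fold change with its standard error for each tested Hist1 gene in order along chromosome 13, for KOKI LPS against WT LPS (top) and femoral KOKI against control (bottom), on separate vertical scales. Hist1h2bn stands at -2.78 in the splenic cultures and at 1.31 in the femoral pools.

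The femoral preparations, labelled B cells, were first checked against markers. The 6 B cell markers summed to 11.5 to 13.9 CPM, against 2478 to 3141 CPM in the splenic cultures, and Ms4a1 was at most 0.0890 CPM and Pax5 at most 0.326 CPM. The 7 neutrophil markers summed to 11395 to 19658 CPM and the 7 erythroid markers to 8803 to 12239 CPM, so the defining B cell markers were nearly absent. These libraries are therefore called femoral libraries here.

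In femoral KOKI against control libraries, 65 of the 66 members had a positive difference, with a median log2 of 1.28 against -0.02 over all genes, but none passed the test. In edgeR 0 members had an adjusted p under 0.05 (0.0301% of all genes, 5 of 16624, did), and the lowest was 0.0917. At an unadjusted p under 0.05 in edgeR, 55 members were higher and 0 lower, where 1441 of the 16624 genes were higher and 1246 lower. DESeq2 called 45 members, all higher, and 629 genes in all. Both KOKI pools lay above both controls in 61 members (24.8% of all genes) and below both in 0 (24.5% of all genes). The median difference was 1.83 over H4 genes, 1.45 over H2B, 1.12 over H2A, 0.82 over H3 and 0.52 over H1. Control replicate 1 was itself lower than control replicate 2 over H4 (median log2 -0.997) and H2B (-0.66) and higher over H2A (0.35) and H3 (0.43). The part of that library in the order by type was not tested. With the KOKI pool on the background of the controls alone, deficient for RAG2 and gamma c, the median was 1.13 with 0 called.

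Hist1h4j, an H4 gene, had the largest difference. It was at 109 and 319 CPM in the controls and 825 and 1092 CPM in the KOKI pools, a log2 of 2.18 (SE 0.47, edgeR adjusted p = 0.118). Hist1h4f was at 287 and 852 CPM and 2230.1 and 2625 CPM, a log2 of 2.11. In both genes control replicate 1 was far below control replicate 2, and both KOKI pools were above each. Hist1h2ah had controls close together, 72.7 and 77.6 CPM, and KOKI pools at 191 and 210.5 CPM (log2 1.42, SE 0.19, edgeR adjusted p = 0.0917). The H3 gene Hist1h3a was at 229 and 253 CPM and 668 and 763 CPM (log2 1.57, edgeR adjusted p = 0.0922). The H1 gene Hist1h1d moved less, from 932 and 763 CPM to 1400.2 and 1276 CPM (log2 0.66). Hist1h2af, the member without a positive value, was at 192 and 84.8 CPM and 141 and 135 CPM. Hist2h2be overlapped between the groups, at 15.3 and 12.8 CPM and 16.5 and 14.7 CPM.

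The number of members called changed with the libraries in the fit, and so did the number of all genes called. With 1 library left out, the median over members was 1.15 to 1.38. Small RNA genes moved with the histone genes, at 6.16% and 7.71% of counts in the controls and 13.2% in each KOKI pool, and Rn7sk alone was at 2.93% and 3.62% against 6.83% and 8.56%. Their part in the result was not tested. Per count on protein-coding genes other than the members, the summed log2 difference was 1.25, against 1.10 per count on all genes. The summed level of the replication genes overlapped between groups, at 3839 and 3176 CPM in controls and 3215 and 3134 CPM in KOKI pools, and 0 of 28 were called in edgeR, with 2 higher at an unadjusted p under 0.05. Of the 6 markers of proliferation outside S phase 3 had positive and 3 negative differences, with a median log2 of 0.10, and 0 were called in edgeR, with 1 lower at an unadjusted p under 0.05. Their summed level was 4754 and 3354 CPM in controls and 2520 and 2159 CPM in KOKI pools, with both pools below both controls. Regulators, chaperones and variants also had 0 calls in edgeR, of 27, 13 and 12 tested, with 7 regulators lower at an unadjusted p under 0.05. Slbp had a log2 difference of -0.12 and Npat of -0.41.

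The KOKI effect in the splenic cultures and in the femoral libraries was set side by side with an interaction term in a fit of all 10 libraries, a test added with earlier results of these data known. Of 66 members 1 was called, against 0.846% of all genes: Hist1h2bn, with a splenic minus femoral log2 of -4.11 (edgeR adjusted p = 0.00438). Over members the median of this difference was -0.68, against -0.02 over all genes. Tissue, stimulation, RAG2 and gamma c status and cell makeup differ between the femoral and splenic libraries together and cannot be told apart.

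Femoral controls were compared with WT LPS cultures to place the uncultured cells beside stimulated blasts. Of 66 members 15 were called, where 42.4% of all genes were: 2 were higher (21.3% of all genes) and 13 lower (21.1%), with a median log2 of -0.70. By type 6 of 18 H2B and 5 of 13 H4 genes were lower, 1 of 18 H2A and 1 of 11 H3, and none of 6 H1. Hist4h4 fell furthest, from 596 and 378 CPM in WT LPS to 73.3 and 184 CPM in controls (log2 -1.92, SE 0.51, edgeR adjusted p = 0.00925), followed by Hist1h4b (-1.63), Hist1h2bj (-1.63), Hist1h4m (-1.46) and Hist1h2bq (-1.44). The H2B and H4 genes are those that were low in control replicate 1, and 2 members were called without that library, 2 without WT LPS replicate 1 and 20 without control replicate 2. Hist3h2a, whose model overlaps Trim17, rose from 9.28 and 9.49 CPM to 19.5 and 22.1 CPM (log2 1.15, SE 0.24, edgeR adjusted p = 0.00254). Hist1h2aj rose from 0.724 and 1.64 CPM to 8.31 and 5.04 CPM (log2 2.48, edgeR adjusted p = 0.00163) and reached 6.99 and 44.7 CPM in the femoral KOKI pools. All 4 femoral libraries were above all 6 splenic libraries in this gene. Both controls were below both WT LPS cultures in 37 members (35.3% of all genes) and above both in 4 (36.1%).

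The small clusters and the testis genes are given last. In Hist2, 8 of 10 genes were tested, and their medians were -0.78 for SAHA, 0.48 for KOKI against WT LPS, 1.31 for KOKI against WT LPS+SAHA, where 3 were called higher, and 0.88 for femoral KOKI. Hist2h3c2 was at 368 and 449 CPM in WT LPS, 222 and 187 CPM with SAHA and 1317 and 348 CPM in KOKI LPS, the last pair being far apart. Hist3h2ba was at 21.2 and 24.7 CPM in WT LPS, 33.8 and 15.95 CPM with SAHA, 13.9 and 12.9 CPM in KOKI LPS, 19.5 and 28.6 CPM in controls and 48.7 and 46.5 CPM in femoral KOKI. It was lower in both KOKI cultures than in every other library, short of the threshold against WT LPS (log2 -0.76, edgeR adjusted p = 0.255). Hist1h1t stayed between 0.553 and 2.58 CPM and Hist1h2ba between 0.0852 and 3.20 CPM in all libraries, and neither was called in any comparison.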

How the data were processed

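The authors deposited 1 table of raw counts of reads per gene (whole numbers, not normalised) for 10 total RNA libraries made, per the labels' protocols, with a stranded kit from 500 ng of RNA. Per the submitters' processing notes, reads were aligned with STAR 2.4.0a to mm10 (GRCm38) and counted with featureCounts (Subread 1.4.6-p1); the sources used here do not give the annotation, strand setting or treatment of multiple matches. Entries for spike-in and phiX sequences (100, 1 to 17 counts per library) were left out.

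Tests used edgeR 4.0.16 in R 4.3.3: TMM, filterByExpr (minimum count 10, minimum total 15), the quasi-likelihood F test and Benjamini-Hochberg adjustment over all tested genes, threshold 0.05. The 3 splenic comparisons came from 1 fit of 6 libraries, the femoral one from 4, and femoral control against WT LPS and the interaction from all 10, in 6 groups. SE is the log2 fold change divided by the square root of F. DESeq2 1.42.0, other scalings, no filter, other fits, a replicate block and leaving out each library were alternatives. CPM levels, single or summed over a list, use TMM over all 10 libraries, and shares use plain totals. Differences within replicate pairs used log2(CPM + 0.5). Deviations from group means correlated by 0.343 between equally numbered WT LPS and WT LPS+SAHA cultures; that both carry the same WT number in their titles was read as pairing, and KOKI cultures were taken to share only a number. The chi-square per degree of freedom between replicates was 92.6 to 161, so none were copies. The fit was tested on simulated data.

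Named were, by rule, the 3 members of each type with the highest splenic CPM per kb, the 5 largest called rises and falls per comparison, members known for polyadenylated or testis forms, members of the small clusters, and in linked lists up to 5 called genes and 9 fixed regulators; other members named were chosen after their values were seen. Members and lists were chosen with earlier results of these data known. Sequences came from RefSeq promoters (GRCm38.p6) and GENCODE M21 transcripts.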

Additional observations from a re-analysis of the deposited data

Results flagged for a closer look

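The KOKI minus control difference of Hist1h2bn was not the same in the splenic and femoral libraries, which differ in tissue, stimulation, genotype background and cell makeup together, by the interaction term in the fit of all 10 libraries: the splenic minus femoral log2 difference was -4.11 (edgeR adjusted p = 0.00438). Hist1h2bn was at 1631 and 957 CPM in WT LPS and 158 and 210.2 CPM in KOKI LPS, and at 642 and 815 CPM in femoral controls and 1634 and 1952 CPM in the femoral KOKI pools. It was lower in 2 of 2 KOKI cultures and higher in 2 of 2 femoral KOKI pools, but the femoral difference alone was not called (log2 1.31, edgeR adjusted p = 0.124).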

How the results depend on the processing

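Members called, then all genes called, are given per comparison. For SAHA (0 and 712), DESeq2 gave 3 and 1211, no filter 46 and 1970, all 10 libraries 211 genes, plain totals 32 genes, and the compared libraries alone 0 genes; leaving out 1 library gave 0 to 1 members and 0 to 290 genes. For KOKI LPS against WT LPS (2 and 626), DESeq2 gave 4 members, no filter 29 and 1254, and leaving out 1 library 1 to 10 and 270 to 708. The median over members there was -0.15, reversed, without KOKI replicate 1 and 0.84 without KOKI replicate 2. For KOKI LPS against WT LPS+SAHA (33 and 3639), no filter gave 55 members and leaving out 1 library 7 to 53 and 1703 to 3463. For femoral KOKI (0 and 5), DESeq2 gave 45 and 629, no filter 45 and 662, and leaving out 1 library 0 to 59 and 13 to 3456, while RLE, plain totals, all 10 libraries and the KOKI pool on the control background alone each gave 0 genes. For femoral control against WT LPS (15 and 8568), DESeq2 gave 9 members, no filter 39, and leaving out 1 library 2 to 20 and 6094 to 7640; plain totals moved the median from -0.70 to -0.33. The cause of these shifts was not tested, apart from fewer libraries or genes in a fit. Where 1 library was left in a group, its spread was taken to equal that of the rest.

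With the replicate number as a block, members called were 52 for SAHA (3413 genes), 16 for KOKI LPS against WT LPS (1313 genes) and 53 for KOKI LPS against WT LPS+SAHA. In the last 2, equal numbers are not known to mark a shared source. Added after seeing the data, the count of head-to-head pairs with the higher H2A value (12 of 12 in KOKI LPS against WT LPS) was 6 to 12 when 1 library was left out. Over the alternatives, 57 counts of calls stayed within 1.5 times the main count and 59 did not. Hist1h2bn kept its direction and call in KOKI LPS against WT LPS under every alternative run.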
